A study of Mus musculus with 6 samples.

Results

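Collagen chain genes encode the subunits of the collagens, the proteins that give connective tissue its tensile strength. They were followed in cultured cells of the mouse gum with and without a dose of laser light. The 39 genes are those annotated as protein coding whose symbol has the form of a collagen chain name, out of 20665 genes in the deposited table. By class they are 11 fibrillar chains, 9 network-forming chains, 7 FACIT chains (fibril-associated collagens with an interrupted helix) and 12 others. Col9a1, Col22a1, Col6a5, Col13a1 and Col26a1 belong to the same family and were not analysed here. Within the table, membership was set by annotation and name alone, but the set was chosen with earlier results of these data known.

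A collagen molecule is a rope of 3 chains wound together. Each chain carries long stretches of a triplet repeat that begins with glycine, the only residue small enough for the core of the rope. Fibrillar chains give long unbroken ropes that pack side by side into fibrils, network chains join at their ends into sheets such as the basement membrane, and FACIT chains sit on the surface of fibrils. Gingival fibroblasts make the type I and type III fibrils of the gum and renew them after injury.

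The series holds 6 RNA-seq libraries of total RNA from primary gingival fibroblasts of wild-type C57BL/6 mice. In 3 of them the cells, in a 35-mm dish, had received Er:YAG laser light at 3.9 J/cm2 from 25 cm, and RNA was collected at 3 h. The other 3 came from cells with no irradiation, also at 3 h. An Er:YAG laser is a solid-state infrared laser used by dentists, and the labels state the purpose as finding early effects of irradiation. The labels do not say that replicates are separate animals or separate cultures. The p-values below therefore measure the spread between these libraries only, which may be technical.

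The glycine repeat is written into the exons of the fibrillar genes, and a unit of 54 bases, which holds 6 triplets, recurs along them. To show the repeat shared by the chains that the results turn on, the first coding exon of exactly 54 bases with a glycine codon at every step is given for 5 fibrillar genes, 5′ to 3′ on the coding strand, with glycine codons in capitals. Sequences and coordinates are from the GENCODE M21 transcripts of build GRCm38, which is not the authors' build.
Col1a1, exon 8 of 51, chr11:94939904-94939957, plus strand: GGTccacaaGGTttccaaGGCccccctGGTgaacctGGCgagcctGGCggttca
Col1a2, exon 8 of 52, chr6:4515481-4515534, plus strand: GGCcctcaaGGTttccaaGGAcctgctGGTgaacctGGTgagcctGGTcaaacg
Col3a1, exon 6 of 51, chr1:45325360-45325413, plus strand: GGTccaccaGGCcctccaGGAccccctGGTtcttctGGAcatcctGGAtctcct
Col5a2, exon 6 of 54, chr1:45434892-45434945, minus strand: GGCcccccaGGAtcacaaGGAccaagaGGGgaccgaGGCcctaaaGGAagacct
Col2a1, exon 6 of 54, chr15:97998545-97998598, minus strand: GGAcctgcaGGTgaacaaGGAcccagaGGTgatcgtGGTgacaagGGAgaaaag

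Network chains break the repeat many times. A break of Col4a1 is given from exon 21 of 52 at chr8:11235141-11235200 on the minus strand (GRCm38). It is the first short break found with at least 5 repeats on either side whose printed stretch does not cross an exon border. It has 6 bases between the last triplet of the first stretch and the first glycine codon of the next. It is shown with 3 triplets on either side and their glycine codons in capitals.
Col4a1, exon 21: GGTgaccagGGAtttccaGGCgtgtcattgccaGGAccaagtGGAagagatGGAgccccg

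The longest unbroken run of glycine triplets had a median of 338 triplets in fibrillar genes (216 to 344). The median run was 45 in network genes (39 to 66), 52 in FACIT genes (32 to 113) and 44 in the others (28 to 87). The shortest fibrillar runs were those of Col24a1 (216) and Col27a1 (217), which encode minor fibrillar chains. Exons of 54 bases numbered 21 to 33 per fibrillar gene, with a median of 29, against medians of 2 in network, 12 in FACIT and 3 in other genes. Col8a1, Col8a2 and Col10a1, the short network chains, had no coding exon of that size, and their repeat lies in exons that also hold untranslated sequence. The repeat took a median of 61.3% of the coding bases in fibrillar genes, 76.5% in network, 59.2% in FACIT and 32.0% in other genes. The plot of exon size against repeat length sets the fibrillar genes apart from the other 3 classes on both axes.

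**Figure D1:**
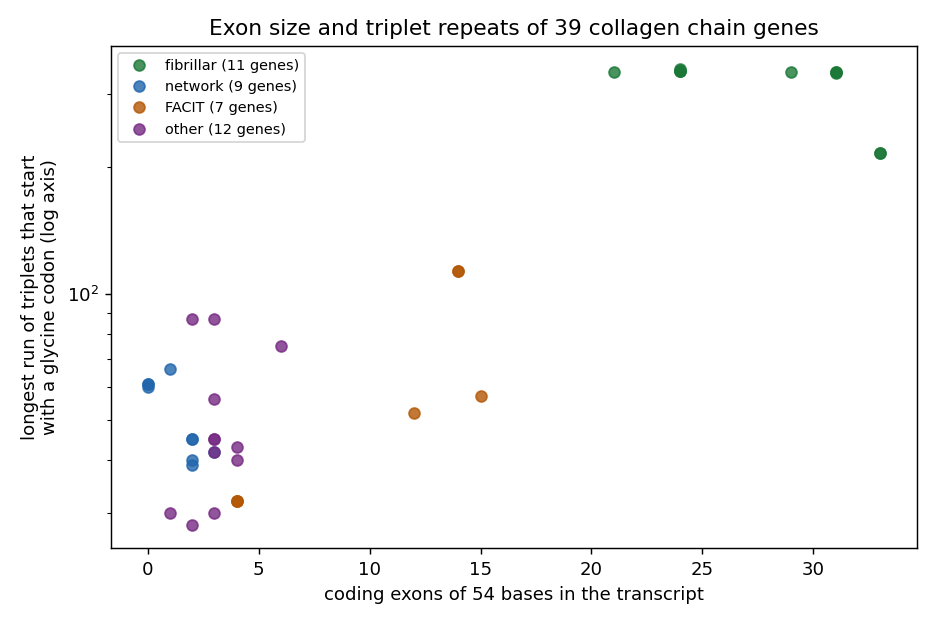
Each point is a collagen chain gene; the x axis counts its coding exons of 54 bases and the y axis, a log axis, gives its longest run of triplets that start with a glycine codon. The 11 fibrillar genes lie at 21 to 33 such exons and at runs of 216 or more, above and to the right of all network, FACIT and other genes, some of whose points coincide.

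Depth was between 45178137 and 59904715 reads per library. Fibroblast markers were abundant as a sum, and all 10 listed genes were in the table. They summed to 742098 to 1023370 normalized counts in irradiated and 673022 to 1047739 in non-irradiated libraries, most of it from Fn1 and Vim. Single genes differed: Lum had 50.3 in irradiated and 59.2 in non-irradiated replicate 1 and at least 782 elsewhere. Dcn was lowest in replicate 3 of both groups. The 4 of 8 epithelial markers in the table summed to 19.2 to 91.0 in irradiated and 15.5 to 22.3 in non-irradiated libraries. The 5 of 6 endothelial markers summed to 197 to 600 in irradiated and 156 to 617 in non-irradiated libraries, and the 3 of 6 immune markers to 30.8 to 69.5 in irradiated and 26.4 to 53.3 in non-irradiated libraries. The sums of some other marker lists were higher, but each came mainly from few genes. The 5 pericyte and smooth muscle markers summed to 31890 to 60934 in irradiated and 30917 to 55813 in non-irradiated libraries, and 2 of 5 skeletal muscle markers to 1969 to 7091 in irradiated and 2019 to 6748 in non-irradiated libraries. The 4 of 6 bone markers summed to 2718 to 5824 in irradiated and 2991 to 4850 in non-irradiated libraries, and the 5 Schwann and neural markers to 2320 to 3103 in irradiated and 2365 to 3323 in non-irradiated libraries. Cspg4 and Cnn1 made up most of the pericyte and smooth muscle sum, and Acta1 of the skeletal muscle sum. Runx2 made up most of the bone sum and Tubb3 of the Schwann and neural sum. Over all libraries Rgs5 had 13.2 to 95.2 normalized counts, Des 30.9 to 75.3 and Dmp1 36.5 to 77.0. Myh11 and Notch3 were higher, between 230 and 3680. A normalized count is the number of reads of a gene divided by a scale factor for its library. A value of 0 means that no read was counted, which still allows an expected number of up to 3 reads.

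Collagen chain genes took 6.33%, 4.84% and 5.43% of gene-assigned reads in irradiated replicates 1, 2 and 3, and 6.83%, 4.43% and 5.25% in non-irradiated replicates 1, 2 and 3. Replicate 1 was highest and replicate 2 lowest in each group, and the groups overlapped. By class the mean share was 3.73% ± 0.629 in irradiated and 3.73% ± 0.903 in non-irradiated libraries for fibrillar genes, and 0.841% ± 0.0509 in irradiated and 0.812% ± 0.108 in non-irradiated libraries for network genes (SD, n = 3 each). FACIT genes took 0.484% in each group and the others 0.479% in irradiated and 0.473% in non-irradiated libraries. Per kilobase of transcript, Col1a1 led at 144623 normalized counts on average over the 6 libraries, followed by Col1a2 at 87638, and both kept these ranks in 6 of 6 libraries. These genes encode the chains of type I collagen, the main fibril of the gum. Col1a1 gave 31.0% and Col1a2 16.9% of all collagen normalized counts. Next came Col4a1 (36258 per kb) and Col3a1 (31042), then Col5a2 (26056), Col4a2 (23708), Col12a1 (19679), Col5a1 (18576) and Col6a3 (14964), which encode chains of basement membrane, of type III and type V fibrils, of a FACIT collagen and of beaded filaments. Col6a1 and Col6a2 had 9313 and 7162 per kb.

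Col18a1, Col16a1, Col11a1, Col8a1 and Col5a3 lay between 2978 and 2245 normalized counts per kb. Below them, Col2a1 (971 per kb), Col4a5 (834), Col8a2 (779), Col15a1 (433), Col14a1 (330), Col27a1 (307), Col7a1 (168) and Col28a1 (142) followed, and the remaining members had at most 44.0 per kb. The ranges of neighbours in this order were apart at only 5 places: between Col1a1 and Col1a2, Col1a2 and Col4a1, Col6a2 and Col18a1, Col28a1 and Col10a1, and Col20a1 and Col9a3. All other neighbours overlapped over the 6 libraries. Col25a1 and Col6a6, listed among the others, and the FACIT gene Col9a2 had at most 18.6 normalized counts in any library, and these 3 did not pass the minimum of 10 normalized counts in at least 3 libraries. The other 36 members were tested.

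**Figure D2:**
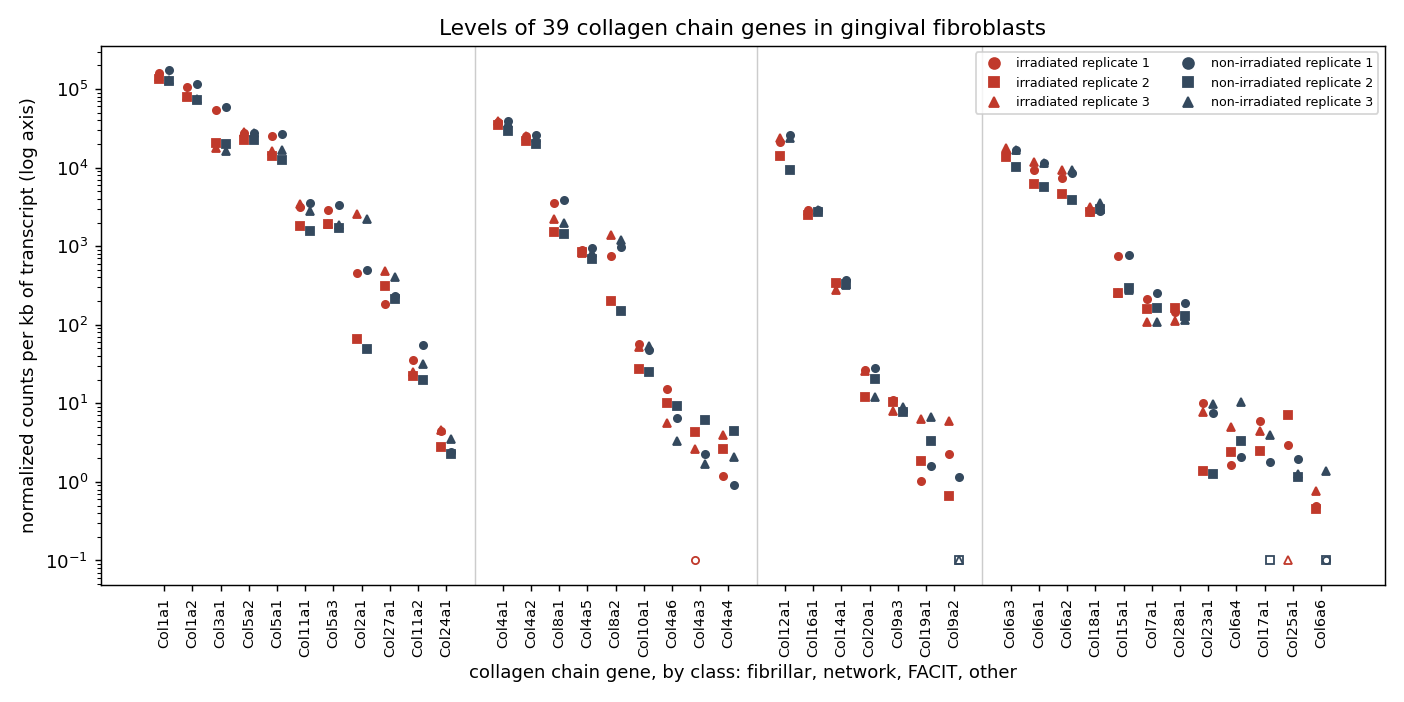
Normalized counts per kilobase of transcript (log axis) of the 39 collagen chain genes, grouped by class, with irradiated libraries in red left of non-irradiated libraries in dark blue and a symbol for each replicate number; open symbols at the bottom mark a value of 0. Levels run from about 144623 per kb for Col1a1 to 0.516 for Col6a6, and same-numbered libraries lie side by side in genes such as Col3a1, Col2a1 and Col8a2.

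No collagen chain gene of irradiated cells differed from non-irradiated cells beyond the spread between libraries. Of the 36 tested, 0 were called higher and 0 lower in limma at an adjusted p of 0.05, where 0% of all 16141 tested genes were called, and the adjusted p of each member was 0.9998. At an unadjusted p under 0.05 there were 0 members, where 0.818% of all genes passed. With the replicate number as a block, limma called 0 members and 0.0186% of all genes, and at an unadjusted p under 0.05 it gave 0 members and 3.26% of all genes. Without the block, edgeR called 0 members and 0% of all genes, with 0 members and 0.694% of all genes at an unadjusted p under 0.05. DESeq2 without the block called 0 members and 0.0242% of all genes, with 0 members and 1.03% of all genes at that level. With the block, edgeR called 0 members and 0.0124% of all genes, and DESeq2 0 members and 0.159%. In the authors' deposited table, which a DESeq2 fit with the replicate number matches to within 0.0009 on the log2 scale, 0 members and 0.159% of all genes passed, and 0 members and 2.30% of all genes had an unadjusted p under 0.05. In bulk RNA, fewer cells of a kind and less RNA per cell cannot be told apart.

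The groups overlapped in all 36 members, where they were apart in 4.73% of all tested genes. Irradiated libraries were higher than the same-numbered non-irradiated ones in 3 of 3 pairs for Col4a6, Col24a1 and Col17a1, which is 3 members where 11.8% of all genes did so. They were lower in 3 of 3 pairs for Col18a1, Col15a1, Col7a1, Col6a4 and Col19a1, which is 5 members where 11.0% of all genes did so. The log2 fold change was above 0 in 24 of 36 members and in 51.5% of all genes. Its median was 0.05 over the members and 0.01 over all genes. By class the median was 0.04 in fibrillar genes (9 of 11 above 0), 0.08 in network genes (8 of 9), 0.02 in FACIT genes (3 of 6) and -0.03 in the others (4 of 10).

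The 3 pairs of same-numbered libraries did not move alike. In pair 1 the irradiated library was higher in 8 of 36 members (47.2% of all genes), in pair 2 in 26 (52.2%) and in pair 3 in 22 (52.9%). Among the 23 members that averaged at least 1000 normalized counts, the numbers were 1 in pair 1, 18 in pair 2 and 16 in pair 3, and the exception in pair 1 was Col16a1. Of all 7230 tested genes of that abundance, the numbers were 3525 in pair 1, 4145 in pair 2 and 4196 in pair 3. The median log2 ratio over the 36 members was -0.11 in pair 1, 0.13 in pair 2 and 0.05 in pair 3. The sign of the median therefore differed between the pairs, and it changed when a library was left out: the median was 0.21 without non-irradiated replicate 1 and -0.12 without non-irradiated replicate 2.

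The intervals show what size of change these libraries could still hold. With the replicate block, the 95% confidence intervals of the 23 abundant members all lay between 0.787-fold and 1.43-fold, the lower bound being that of Col7a1 and the upper that of Col27a1. The low members allow far more: the interval of Col17a1 ran from 0.947-fold to 14.4-fold and that of Col4a3 from 0.0848-fold to 1.65-fold. The plot of fold changes shows how the block narrows the interval of genes such as Col2a1, Col8a2 and Col3a1.

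**Figure D3:**
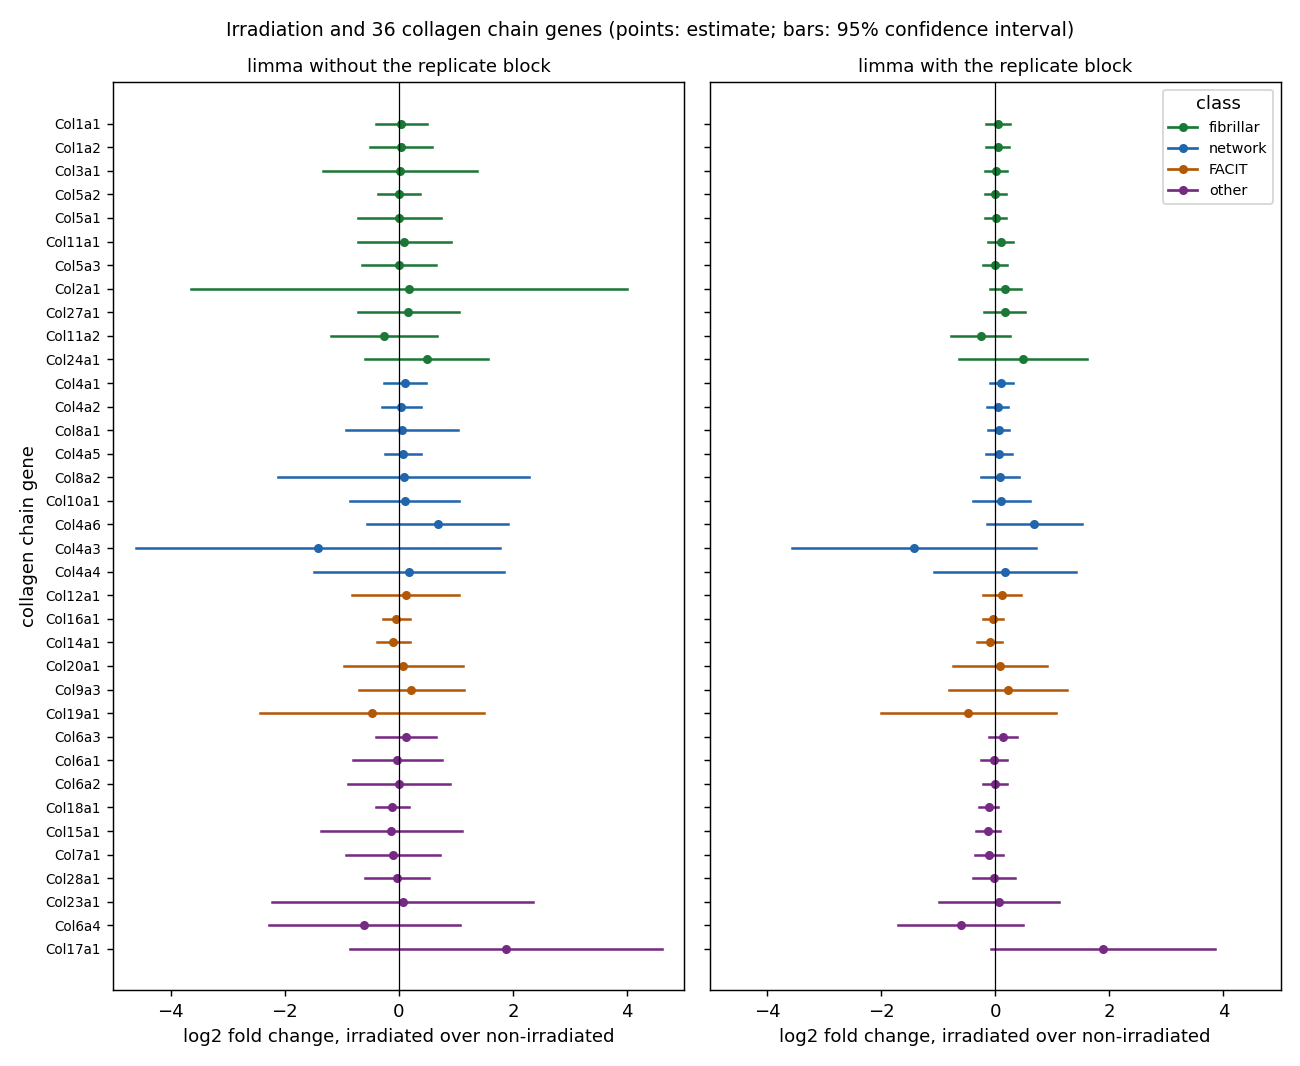
Log2 fold change of irradiated over non-irradiated libraries (x axis) for the 36 tested collagen chain genes (y axis), with 95% confidence intervals from limma without the replicate block on the left and with it on the right, coloured by class. All intervals in both panels cross 0; that of Col2a1 starts at -3.64 without the block and at -0.09 with it.

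No change was called in the genes of type I collagen. Col1a1, the gene of its major chain, had 951934, 799708 and 853074 normalized counts in irradiated replicates 1 to 3 and 1021736, 741764 and 777484 in non-irradiated replicates 1 to 3. Col1a2, the gene of its partner chain, had 569076, 417491 and 431663 in irradiated and 612360, 382304 and 399233 in non-irradiated replicates. In both genes replicate 1 was the highest library of each group, and the non-irradiated group spread around the irradiated one. The log2 fold changes were 0.05 ± 0.19 and 0.04 ± 0.23 (SE of the fit without the block, n = 3 each). The 95% intervals of the fit with the block were 0.890-fold to 1.20-fold for Col1a1 and 0.894-fold to 1.19-fold for Col1a2.

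Col3a1 encodes type III collagen, which forms thin fibrils with type I and is laid down early in healing tissue. It had 298103, 114441 and 98309 normalized counts in irradiated replicates 1 to 3, against 326117, 109529 and 89796 in non-irradiated replicates 1 to 3. Replicate 1 was far above the others in both groups, and the groups overlapped. The log2 fold change was 0.02 ± 0.57 (SE without the block), with a 95% interval on that scale of -1.32 to 1.37 without the block. With the block the interval was 0.888-fold to 1.16-fold. The sign of the fold change differed with library totals set equal and in edgeR and DESeq2 without the block. The neighbouring fibrillar gene Col5a2 lies tail to tail with Col3a1, with 24614 bases between them on chromosome 1 (GRCm38), and varied less. Its values were 181855, 148522 and 188483 in irradiated and 184879, 149348 and 182651 in non-irradiated replicates, and replicates 1 and 3 were close.

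Col5a1 and Col5a2 encode the chains of type V collagen, which starts fibrils and limits their width. Col5a1 had 209363, 118502 and 137718 normalized counts in irradiated replicates 1 to 3 and 222306, 106357 and 142660 in non-irradiated replicates 1 to 3. Replicate 1 was highest in both groups, and the ranges overlapped. The log2 fold changes of Col5a1 and Col5a2 were 0.01 ± 0.31 and 0.00 ± 0.16 (SE), and their sign changed under other scalings of the libraries. Col5a3, the gene of a further type V chain, and Col11a1, the gene of a type XI chain that nucleates cartilage fibrils, lay between 10307 and 27286 normalized counts over all libraries, with overlapping groups. Col27a1, the gene of a minor fibrillar chain, had 1402 to 3728 in irradiated and 1630 to 3075 in non-irradiated libraries.

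Among the low fibrillar genes, Col11a2 and Col24a1 had the smallest p. Col11a2, the gene of the partner of Col11a1, had 192.5, 121 and 134 normalized counts in irradiated replicates 1 to 3 and 294, 106.5 and 170.1 in non-irradiated replicates 1 to 3. The non-irradiated replicate 1 was the highest library, and all irradiated values lay within the non-irradiated range. Col24a1 had 31.7, 19.6 and 32.7 in irradiated and 16.9, 16.2 and 25.4 in non-irradiated replicates. Each irradiated library was above its same-numbered partner, and the groups overlapped. Log2 fold changes were -0.26 ± 0.40 for Col11a2 and 0.49 ± 0.46 for Col24a1 (SE).

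Col4a1 and Col4a2 encode the chains of the type IV network found in nearly all basement membranes. They are transcribed from opposite strands out of a shared start region, shown here because the 2 chains are compared below: the RefSeq table of promoters (GRCm38.p6), which matched 32 of the 39 members, puts their start sites 21 bases apart, and capitals run from the start site of Col4a2 at 11312805 to that of Col4a1 at 11312826.
Col4a1 and Col4a2 start region, chr8:11312801-11312830, plus strand: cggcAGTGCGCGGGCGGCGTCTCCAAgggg

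Col4a1 had 254300, 231791 and 257663 normalized counts in irradiated replicates 1 to 3, against 261015, 192472 and 241856 in non-irradiated replicates 1 to 3. Col4a2 had 161821, 140135 and 163410 in irradiated and 168261, 129248 and 154618 in non-irradiated replicates. In both genes replicate 2 was the lowest library of each group, and the groups overlapped. The log2 fold changes were 0.11 ± 0.16 and 0.05 ± 0.15 (SE). The other type IV genes also lie head to head, Col4a3 and Col4a4 with 127 bases between start sites on chromosome 1, and Col4a5 and Col4a6 with 1309 bases on chromosome X (GENCODE M21).

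Col4a5, which encodes a chain of kidney and smooth muscle basement membranes, had 5343 to 5766 normalized counts in irradiated and 4475 to 6262 in non-irradiated libraries. Its neighbour Col4a6, which encodes a partner chain, had 101, 66.5 and 37.5 in irradiated replicates 1 to 3 and 43.1, 61.9 and 22.1 in non-irradiated replicates 1 to 3. Each irradiated library of Col4a6 was above its same-numbered partner, the groups overlapped, and the log2 fold change was 0.68 ± 0.53 (SE), with 0.28 without non-irradiated replicate 3, 0.35 without irradiated replicate 1 and 1.05 without irradiated replicate 3. Col4a3, a chain of the kidney filter, had 0, 37.2 and 22.1 in irradiated and 19.5, 52.8 and 14.4 in non-irradiated replicates. Replicate 2 was highest in both groups, the ranges overlapped, and the log2 fold change of -1.42 ± 1.36 (SE) rests on the irradiated library at 0, without which it was 0.21; edgeR gave -0.55. Col4a4, the gene of a partner chain of Col4a3, had 9.31 to 44.6 normalized counts over all libraries. Col4a3 shares up to 274 exon bases with C430014B12Rik on the other strand, and the strand setting of the counting is not given in the sources used here.

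Col8a1 and Col8a2 encode the chains of type VIII collagen, a short-chain network of the cornea and vessel wall. Col8a1 had 18315, 7685 and 11313 normalized counts in irradiated replicates 1 to 3 and 19476, 7249 and 9944 in non-irradiated replicates 1 to 3. Col8a2 had 3249, 859 and 6054 in irradiated and 4287, 639 and 5172 in non-irradiated replicates. Col8a1 was highest in replicate 1 and Col8a2 in replicate 3, in both groups, and replicate 2 was lowest for both. Log2 fold changes were 0.06 ± 0.42 and 0.08 ± 0.94 (SE). Col10a1, the network collagen of growing cartilage, had 79.1 to 180.5 normalized counts over all libraries.

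Col12a1, a FACIT chain that coats type I fibrils, was the fourth largest source of collagen counts. It had 247153, 162670 and 275244 normalized counts in irradiated replicates 1 to 3 and 296346, 107675 and 270040 in non-irradiated replicates 1 to 3. Replicate 2 was lowest in both groups, and the irradiated values lay within the non-irradiated range. The log2 fold change was 0.12 ± 0.40 (SE).

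Col16a1 and Col14a1, also FACIT chains, varied little between libraries. Col16a1 had 15175, 13124 and 14597 normalized counts in irradiated replicates 1 to 3 and 14849, 13982 and 15235 in non-irradiated replicates 1 to 3. Col14a1 had 2172, 2206 and 1803 in irradiated and 2388, 2117 and 2080 in non-irradiated replicates. Neither gene separated the groups, and their log2 fold changes were -0.04 ± 0.10 and -0.09 ± 0.13 (SE). Without irradiated replicate 3 that of Col14a1 was -0.0012. Col9a3, a chain of the FACIT that coats cartilage fibrils, had 33.9, 31.3 and 24.1 in irradiated and 24.5, 23.3 and 27.6 in non-irradiated replicates. The groups overlapped, and Col9a3 shares up to 464 exon bases with Tcfl5 on the other strand. Col20a1 and Col19a1 had 4.37 to 127 normalized counts over all libraries.

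Col6a1, Col6a2 and Col6a3 encode the chains of type VI collagen, which forms beaded filaments around cells. Col6a3 had 153924, 136963 and 179205 normalized counts in irradiated replicates 1 to 3 and 166961, 101794 and 168491 in non-irradiated replicates 1 to 3. Col6a1 had 38382, 25665 and 48578 in irradiated and 46954, 22936 and 46589 in non-irradiated replicates. Col6a2, its neighbour on chromosome 10, had 29398, 17982 and 36250 in irradiated and 33621, 15290 and 37147 in non-irradiated replicates. Replicate 2 was the lowest library of each group for all 3 chains, and the groups overlapped. The log2 fold changes were 0.13 ± 0.22 for Col6a3, -0.02 ± 0.33 for Col6a1 and 0.00 ± 0.38 for Col6a2 (SE), and the sign for Col6a2 changed under other scalings.

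Col18a1 and Col15a1 encode related collagens of the basement membrane zone, and a fragment of the Col18a1 product is the angiogenesis inhibitor endostatin. Col18a1 had 15049, 15363 and 17557 normalized counts in irradiated replicates 1 to 3 and 15477, 16731 and 19786 in non-irradiated replicates 1 to 3. Col15a1 had 3824, 1328 and 1314 in irradiated and 4024, 1509 and 1439 in non-irradiated replicates. Each irradiated library was below its same-numbered partner in both genes, and the groups overlapped. Log2 fold changes were -0.11 ± 0.13 and -0.13 ± 0.53 (SE without the block). With the block, the 95% intervals were 0.823-fold to 1.04-fold for Col18a1 and 0.790-fold to 1.06-fold for Col15a1. The log2 fold change of Col18a1 was -0.013 without non-irradiated replicate 3 and -0.19 without non-irradiated replicate 1. Col7a1, the gene of the anchoring fibrils that tie epithelium to connective tissue, had 991 to 1965 normalized counts in irradiated and 1009 to 2370 in non-irradiated libraries, also lower in 3 of 3 pairs.

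Col17a1, a membrane-bound collagen of the hemidesmosome, the junction that fixes epithelial cells, had 32.8, 13.7 and 25.0 normalized counts in irradiated replicates 1 to 3 and 10.2, 0 and 22.1 in non-irradiated replicates 1 to 3. The irradiated library was the higher one in each pair, and the groups overlapped. Its log2 fold change of 1.88 ± 1.17 (SE) was the largest among the tested members and rests on few reads, and without the non-irradiated library at 0 it was 0.55. In edgeR it was 1.14. Of the 4 epithelial markers in the table, Cdh1 was above 0 in 6 of 6 libraries, Epcam and Krt8 were at 0 in 2 each and Krt18 was at 0 in 3. Krt8 averaged 19.2 normalized counts in irradiated and 3.10 in non-irradiated libraries, Epcam 6.02 in irradiated and 2.48 in non-irradiated, and Cdh1 8.26 in irradiated and 11.0 in non-irradiated libraries. Krt18 had 0, 30.3 and 5.77 in irradiated and 0, 4.06 and 0 in non-irradiated replicates 1 to 3. In irradiated replicate 2 Krt8 had 41.1, Krt18 30.3 and Epcam 13.7, the highest value of each. The part of epithelial cells in these values was not tested. The other low genes of the class, Col6a4 (a further type VI chain), Col23a1 (a membrane-bound collagen) and Col28a1 (type XXVIII), had 7.10 to 809 normalized counts over all libraries.

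Ratios between chains that assemble together were compared within each library, on normalized counts per kilobase, in 7 exact permutation tests with p adjusted over the 7. With 3 against 3 libraries such a test cannot give a p below 0.1, so no ratio could pass 0.05, and the values are a description. The Col1a1 to Col1a2 ratio was 1.67 ± 0.145 in irradiated and 1.67 ± 0.143 in non-irradiated libraries (SD, n = 3 each; exact permutation p = 0.9, adjusted p = 1). The Col6a1 to Col6a2 ratio was 1.31 ± 0.0604 in irradiated and 1.33 ± 0.119 in non-irradiated libraries, and that of Col5a1 to Col5a2 was 0.704 ± 0.178 in irradiated and 0.708 ± 0.209 in non-irradiated libraries (exact permutation p = 0.8 and 1). The differences between the group means of these 3 ratios were smaller than the SD of either group.

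The Col4a1 to Col4a2 ratio was the only one of the 7 in which the groups did not overlap. It was 1.53, 1.61 and 1.54 in irradiated replicates 1 to 3 and 1.51, 1.45 and 1.53 in non-irradiated replicates 1 to 3. All 3 irradiated values were above all 3 non-irradiated ones, by 0.06 on the log2 scale on average. The gap was narrow, with 1.532 as the lowest irradiated and 1.525 as the highest non-irradiated value. Replicate 2 held both the highest irradiated and the lowest non-irradiated value. The exact permutation p was 0.1 and the adjusted p 0.7. The 2 genes share up to 22 exon bases on opposite strands.

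The Col6a3 to Col6a1 ratio was 1.76 ± 0.354 in irradiated and 1.57 ± 0.200 in non-irradiated libraries, a log2 difference of 0.16 (exact permutation p = 0.5, adjusted p = 1). It was higher in 3 of 3 pairs, and replicate 2 was the highest in both groups. The Col8a1 to Col8a2 ratio moved most between replicate numbers, with 4.78, 7.59 and 1.58 in irradiated replicates 1 to 3 and 3.85, 9.62 and 1.63 in non-irradiated replicates 1 to 3 (exact permutation p = 0.9 for irradiation). The Col3a1 to Col1a1 ratio was 0.334, 0.153 and 0.123 in irradiated and 0.340, 0.157 and 0.123 in non-irradiated replicates (exact permutation p = 0.7). Replicate 1 was highest and replicate 3 lowest in each group, and the irradiated ratio was the lower one in 3 of 3 pairs.

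**Figure D4:**
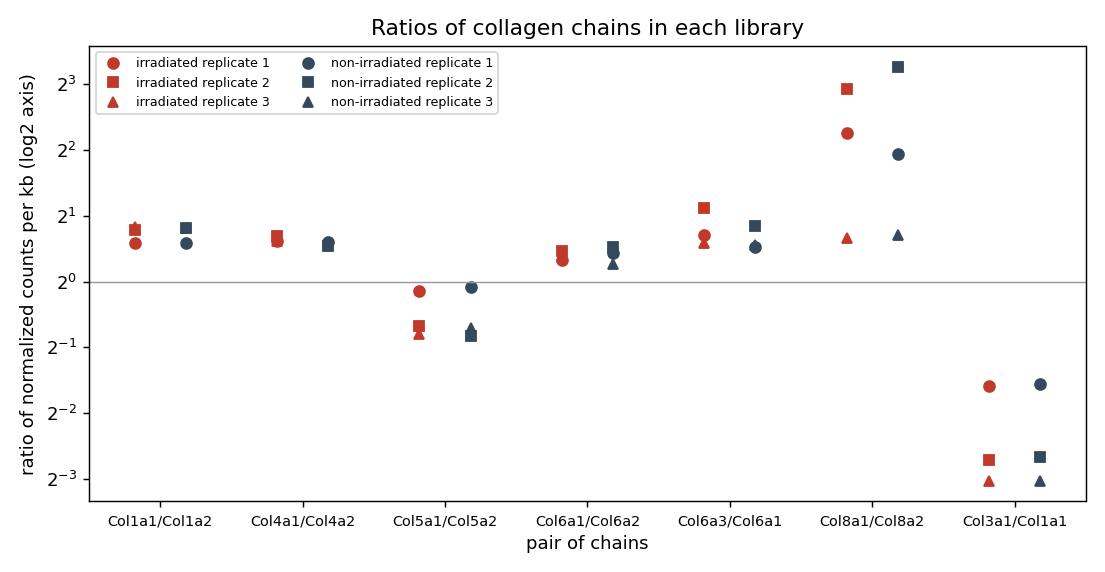
Ratios of normalized counts per kilobase (log2 axis) for 7 pairs of chains, with irradiated libraries in red left of non-irradiated libraries in dark blue and a symbol for each replicate number. The Col8a1/Col8a2 ratio spans 1.58 to 9.62 and follows the replicate number in both groups, and the Col4a1/Col4a2 ratio stays between 1.45 and 1.61.

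The replicate number accounted for most of the variation of collagen genes when their squared variation was pooled. For the 36 tested members, 80.5% of the squared variation of the log2 values lay between replicate numbers, 8.40% between irradiated and non-irradiated libraries and 11.1% was left over, where over all tested genes the shares were 59.0%, 13.6% and 27.4%. In the limma fit with irradiation and replicate number, 16 of 36 members (44.4%) differed between the numbers at an adjusted p under 0.05 in the F-test, where 13.4% of all tested genes did. Among genes averaging at least 1000 normalized counts, 15 of 23 members (65.2%) did, where 17.0% of all such genes did. By class the count was 7 of 11 fibrillar, 2 of 9 network, 1 of 6 FACIT and 6 of 10 other genes. High counts were not particular to collagens. The same test gave 8 of 10 fibroblast markers, 3 of 5 cartilage markers and 4 of 8 genes for collagen receptors and uptake. It gave 4 of 18 genes for collagen folding and modification and 1 of 4 Schwann and neural markers. For the 23 abundant members the shares were 97.6% for the replicate number, 0.472% for irradiation and 1.94% for the rest. Over all genes of that abundance the shares were 79.3%, 5.88% and 14.8%. All these shares pool squared variation over genes, so genes that vary most, such as Col2a1, weigh most. Taken singly, the 23 had replicate shares from 55.9% (Col4a5) to 99.6% (Col2a1) and irradiation shares of up to 16.6% (Col18a1). Among the 36 the lowest replicate share was 10.9% (Col9a3). The labels do not say what the number marks. The summed pericyte and smooth muscle, skeletal muscle and bone markers were highest in replicate 3 of each group and the endothelial markers in replicate 1. Single markers differed from these sums. Among the endothelial markers only Tek and Kdr were highest in replicate 1 of both groups, and Emcn was at 0 in both replicate 1 libraries. The muscle marker Des was highest in replicate 1, at 71.1 in irradiated and 75.3 in non-irradiated libraries. So was the pericyte marker Notch3, at 981 in irradiated and 1233 in non-irradiated libraries. The part of such cells in the collagen values was not tested.

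The collagen genes did not follow the replicate numbers in the same direction. Col1a2, Col3a1, Col5a1, Col5a3, Col8a1, Col11a1, Col15a1, Col7a1 and Col23a1 were highest in replicate 1 on average over the pair. Col2a1, Col6a1, Col6a2, Col6a3, Col12a1, Col8a2 and Col27a1 were highest in replicate 3. Irradiated libraries of Col6a1, Col11a1 and Col12a1 peaked in replicate 3 and non-irradiated ones in replicate 1, and Col23a1 did the reverse. The means of pairs 1 and 3 were close for Col12a1 (271750 and 272642) and Col23a1 (49.6 and 49.3). The pair with the highest mean exceeded the one with the lowest by 3.32 times for Col3a1, 2.85 times for Col15a1 and 2.53 times for Col8a1, and by 1.48 times for Col1a2. Among all members per kilobase, Col3a1 ranked at place 3 in both replicate 1 libraries, at place 6 in both replicate 2 libraries, and at place 8 in irradiated and place 9 in non-irradiated replicate 3.

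**Figure D5:**
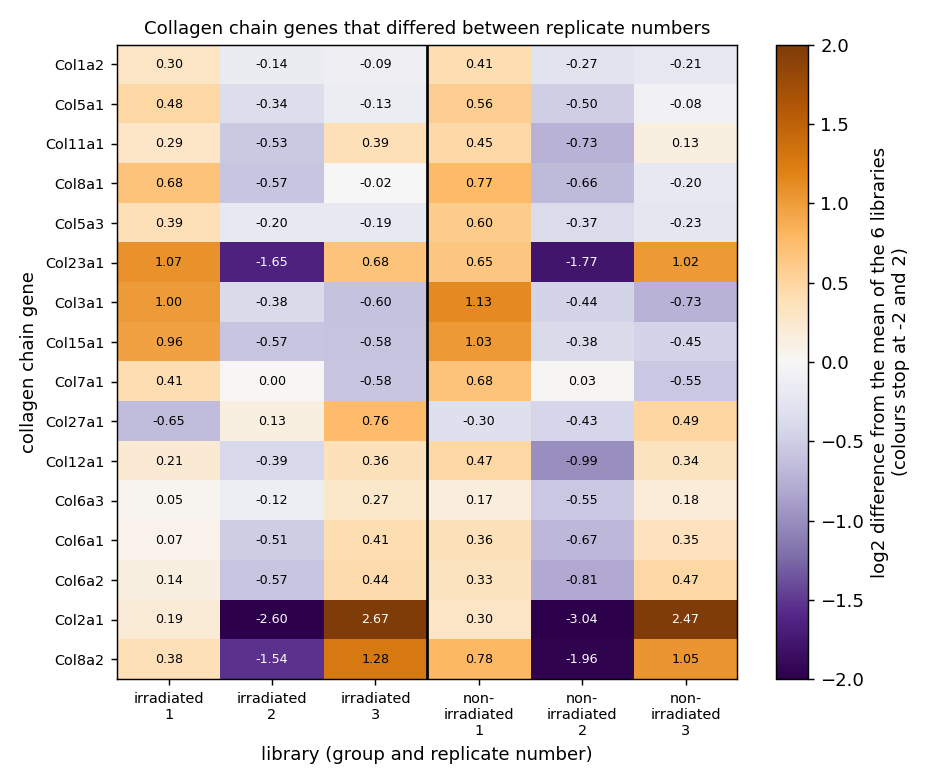
Log2 difference of each library from the mean of the 6 libraries (colour and printed value) for the 16 collagen chain genes that differed between replicate numbers, with the 3 irradiated libraries left of the 3 non-irradiated ones. The left and right blocks are broadly alike by number: Col2a1 and Col8a2 are low in both replicate 2 libraries and high in both replicate 3 libraries, and Col3a1 is high in both replicate 1 libraries. Col6a1, Col11a1, Col12a1 and Col23a1 peak in replicate 1 or 3, but not in the same number on both sides.

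Col2a1, the gene of the main fibril of cartilage, varied most. It had 2335, 336 and 12990 normalized counts in irradiated replicates 1 to 3, against 2518, 248 and 11302 in non-irradiated replicates 1 to 3, and the pair means differed by 41.7 times (adjusted p = 1.09e-06 in the limma F-test of the replicate number). Replicate 3 was highest and replicate 2 lowest in both groups. Of the 6 listed cartilage markers 5 were in the table, and their sum, mostly Sox9, was 2255 to 3173 in irradiated and 1754 to 3287 in non-irradiated libraries. The cartilage proteoglycan gene Acan had 55.8, 23.5 and 178 normalized counts in irradiated and 77.8, 23.3 and 180.0 in non-irradiated replicates 1 to 3. Hapln1, which encodes a link protein of that matrix, had 4.37, 8.81 and 82.7 in irradiated and 5.08, 37.5 and 80.6 in non-irradiated replicates. Acan and Hapln1 were highest in replicate 3. Comp, the gene of a cartilage matrix protein, had 180.5, 59.7 and 164 in irradiated and 288, 13.2 and 131 in non-irradiated replicates, highest in replicate 1. Sox9, the gene of a transcription factor of cartilage cells, had 2590, 2130 and 2727 in irradiated and 2881, 1659 and 2393 in non-irradiated replicates, and Matn3, which encodes a matrilin, had 20.8, 33.3 and 21.2 in irradiated and 34.7, 21.3 and 0 in non-irradiated replicates. Neither was highest in replicate 3 of both groups. The 4 bone markers Alpl, Runx2, Sp7 and Dmp1 were all highest in replicate 3 of each group, with Alpl at 538 in irradiated and 503 in non-irradiated replicate 3 and at most 31.3 elsewhere. The part of cartilage-forming or bone-forming cells in the Col2a1 values was not tested.

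Genes that process, bind and degrade collagen were read from 4 lists, in which limma, limma with the replicate block, edgeR, DESeq2 and the authors' deposited table each gave 0 calls. At an unadjusted p under 0.05 there were also 0 genes in each test but the last, where Loxl2 was the only one. Of the 18 tested of 19 genes for folding and modification, 0 were called higher and 0 lower in irradiated cells, and 9 had a log2 fold change above 0 (median 0.00). P3h2, which encodes a prolyl 3-hydroxylase, had 530, 384 and 455 normalized counts in irradiated and 521, 273 and 367 in non-irradiated replicates 1 to 3. P3h4, which encodes a protein needed for the lysine hydroxylation of collagen, had 8121, 7828 and 8817 in irradiated and 7605, 7326 and 8267 in non-irradiated replicates. Both were higher in 3 of 3 pairs, and the groups overlapped.

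Of the 12 tested of 13 genes for procollagen cleavage and crosslinking, 0 were called. In 11 of them the log2 fold change was above 0 (median 0.07), where 51.5% of all genes were above 0. The pairs did not share this direction: the irradiated library was higher in 4 of the 12 in pair 1, 10 in pair 2 and 8 in pair 3. Loxl2, a lysyl oxidase that crosslinks collagen, had 22558, 19875 and 27931 normalized counts in irradiated and 25379, 15517 and 19528 in non-irradiated replicates 1 to 3. Loxl4, of the same family, had 2556 to 3177 in irradiated and 1874 to 3480 in non-irradiated libraries. In both genes the irradiated library was the higher one in pairs 2 and 3 and the lower one in pair 1. Of this list 8 of 12 differed between replicate numbers, where 13.4% of all tested genes did, among them Lox (chosen after its values were seen), at 166784, 137331 and 206922 in irradiated and 172019, 123042 and 190658 in non-irradiated replicates.

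Of the 8 tested of 10 genes for collagen receptors and uptake, 0 were called, and all 8 had a log2 fold change above 0 (median 0.13), where 51.5% of all genes were above 0 with a median of 0.01. In pair 1 the irradiated library was the higher one in 3 of the 8, in pair 2 in 8 and in pair 3 in 7. Itga11, the integrin chain by which fibroblasts bind type I collagen, had 3031, 2395 and 3452 normalized counts in irradiated and 3682, 1395 and 2507 in non-irradiated replicates 1 to 3. Ddr1, a collagen-binding receptor kinase, had 8645 to 10526 in irradiated and 7312 to 9630 in non-irradiated libraries, and the groups overlapped in both genes. Of the 5 tested of 8 genes for collagen degradation, 0 were called, and 1 had a log2 fold change above 0 (median -0.04). That was Mmp9, a gelatinase, at 20.8, 34.2 and 77.0 in irradiated and 9.31, 24.3 and 57.4 in non-irradiated replicates. Ctsk, the gene of the collagen-degrading cathepsin K, had 7683, 5488 and 6249 in irradiated and 6339, 7107 and 7578 in non-irradiated replicates, and only pair 1 was higher with irradiation.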

How the data were processed

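Groups were taken from the sample titles. The submitters' processing notes name FastQC 0.11.9, Trimmomatic 0.39, HISAT2 2.2.1 and StringTie 2.1.7, with build GRCm39. Settings, strandedness and annotation release: not given in the sources used here. Per the file headers, the single deposited table gives normalized counts, a signal that the authors made by scaling gene counts. Per the file headers it also holds the authors' DESeq2 output: a log2 fold change with its error, a test statistic (score), p-values and adjusted p-values. Repeated identifiers were dropped (80 of 20745 entries). Whole reads were recovered from the smallest step of each column, and 100% of values came out whole to within 0.001. The authors' scaling sets how libraries compare, so alternatives rescale them.

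The filter asked for 10 normalized counts or more in 3 or more libraries. The test was that of limma 3.58.1 (R 4.3.3, eBayes with trend, 2-sided), run on log2(normalized count + 1), with Benjamini-Hochberg adjustment over all 16141 genes and a threshold of 0.05. Adding 1 shrinks the fold changes of low genes, but a library at 0 can move a mean of log values further than the ratio of group means, as in Col17a1 and Col4a3. The fit has 4 residual degrees of freedom without and 2 with the replicate block. Each SE given with a log2 fold change is that of the fit without the block. Same-numbered libraries deviated together from the group means: over 13054 genes averaging at least 50 normalized counts, their correlations across genes were 0.642, 0.474 and 0.567, and at most 0.0129 between different numbers. The numbers come from the titles and were taken to pair the libraries before calls were compared. Alternatives used edgeR 4.0.16 and DESeq2 1.42.0 on the recovered reads, other pseudocounts, filters and scalings, the block, the authors' results and left-out libraries. The scripts were tested on simulated data.

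Levels per kilobase use the length of the basic GENCODE M21 transcript with the longest coding sequence. Values per library are given for the 2 genes of each class with the highest mean, the chains of the ratios, the 2 of each class with the smallest p and the 5 with the smallest replicate-number p, and for the 2 genes of smallest p in each pathway list. Members, lists and tests were chosen with earlier results of these data known. A planned permutation test of the collagen read share is not reported, since the share sums over the members.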

Additional observations from a re-analysis of the deposited data

How the results depend on the processing

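No collagen chain gene was called under any alternative run, which covered pseudocounts of 0.5 and 5, a filter of 50 or none, 3 other scalings, limma without trend, edgeR, DESeq2, the authors' deposited table and each left-out library. Over all genes the calls were 0 in limma, 1 without trend, 3 with the replicate block, 5 in DESeq2, 2 in edgeR with the block, 24 in DESeq2 with the block and 24 in the authors' deposited table. Leaving out irradiated replicate 3 gave 1, and blocked fits without pair 1, 2 or 3 gave 35, 46 and 56. The replicate block changed no collagen call. In this balanced design it cannot move a limma fold change, so the members' median stays at 0.05 (log2) by construction. At an unadjusted p under 0.05, limma gave 0 members with the block. The blocked fits without pair 1, 2 or 3 gave 5, 0 and 2 members at that level, among 1747, 652 and 408 of all genes, and without the block there was 1 member, among 118 of all genes, when non-irradiated replicate 3 was left out. The number of members that differed between replicate numbers was 16 with a pseudocount of 5, 14 with quantile normalization, 15 with the filter of 50 and 17 in edgeR, of which 16, 14, 15 and 16 were among the 16 reported. The FACIT median was 0.081 over 7 genes with no filter, against 0.02 over the 6 genes that passed it. With the replicate block and without pair 3 it was -0.030 over 5 genes. These medians are thus taken over different genes, the last also over fewer libraries.

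With each library left out in turn and no block, the 2 groups are no longer balanced over the replicate numbers. The median log2 fold change then ran from -0.12 to 0.21 over all members, from -0.18 to 0.29 for fibrillar, -0.060 to 0.20 for network, -0.076 to 0.10 for FACIT and -0.24 to 0.20 for other genes. The difference in read share, irradiated minus non-irradiated in percentage points, ran from -0.509 to 0.692 for all members, -0.368 to 0.512 for fibrillar, -0.0303 to 0.0757 for network, -0.114 to 0.0671 for FACIT and -0.0629 to 0.0462 for other genes. The difference in log2 ratio ran from -0.071 to 0.075 for Col1a1/Col1a2, -0.45 to 0.40 for Col3a1/Col1a1, -0.20 to 0.23 for Col5a1/Col5a2, -0.093 to 0.036 for Col6a1/Col6a2, -0.0014 to 0.26 for Col6a3/Col6a1 and -0.66 to 0.62 for Col8a1/Col8a2. It stayed above 0 for Col4a1/Col4a2, from 0.037 to 0.074. All irradiated values of that ratio lay above all non-irradiated ones, so leaving out a library could not change this sign.

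Of 476 alternative values for the 24 genes given by library, 0 passed the threshold and 60 had the other sign, 40 of them from left-out libraries in 18 genes. The log2 fold change then ran from -0.61 to 0.12 for Col11a2, -0.34 to 0.39 for Col12a1, -0.64 to 0.35 for Col15a1, -0.085 to 0.020 for Col16a1, -0.042 to 0.19 for Col1a1 and -0.10 to 0.26 for Col1a2. It ran from -1.30 to 1.52 for Col2a1, -0.48 to 0.59 for Col3a1, -0.021 to 0.20 for Col4a1, -0.060 to 0.13 for Col4a2, -2.42 to 0.21 for Col4a3 and -0.24 to 0.29 for Col5a1. It ran from -0.10 to 0.11 for Col5a2, -0.37 to 0.23 for Col6a1, -0.40 to 0.29 for Col6a2, -0.11 to 0.26 for Col6a3, -0.26 to 0.46 for Col8a1 and -0.88 to 0.87 for Col8a2. The other 6 genes kept their sign, with ranges of -0.15 to -0.0012 for Col14a1, 0.55 to 2.81 for Col17a1, -0.19 to -0.013 for Col18a1, 0.37 to 0.72 for Col24a1, 0.28 to 1.05 for Col4a6 and 0.12 to 0.36 for Col9a3. Other scalings and tools turned 4 fold changes near 0 negative. TMM factors gave -0.0025 for Col5a1, -0.0042 for Col5a2 and -0.0070 for Col6a2. Equal library totals gave -0.0044 for Col3a1, -0.020 for Col5a1, -0.021 for Col5a2 and -0.024 for Col6a2, and quantile normalization gave -0.033, -0.090 and -0.034 for the last 3. In edgeR the values were -0.042 for Col3a1, -0.023 for Col5a1, -0.0027 for Col5a2 and -0.049 for Col6a2, and with the block -0.0027 for Col5a1, -0.0043 for Col5a2 and -0.0074 for Col6a2. In DESeq2 they were -0.041 for Col3a1, -0.018 for Col5a1 and -0.041 for Col6a2. The cause was not tested. Low members such as Col17a1, Col4a3 and Col19a1 rest on few reads, and their intervals allow changes of several fold.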
